A study of Mus musculus with 15 samples.

Results

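The choroid plexus genes described here are Ttr, Enpp2, Aqp1, Slc4a5, Clic6, Folr1, Kl and Prlr. They were taken by name, as a list of 8 genes out of the 21889 in the gene count table. All 8 passed the filter on low counts. The question was how these genes behaved in precursors of cerebellar granule neurons of 4 ages and in cells of medulloblastoma.

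The choroid plexus is a secretory tissue that hangs in the brain ventricles, the fourth ventricle beside the cerebellum among them. Its epithelium makes cerebrospinal fluid by moving ions and water, and it passes hormones and vitamins between blood and fluid. Granule neuron precursors are the dividing cells of the outer cerebellar layer that give rise to granule neurons, and they are not known for the genes of this epithelium.

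RNA-seq was made from 15 mouse cerebellum samples, 3 in each of 5 groups. Per the labels, precursors at E15.5 came from Math1-GFP animals, which carry a green fluorescent reporter named for Math1 (Atoh1), a transcription factor of these precursors, and precursors at P1, P7 and P14 came from wild-type (WT) animals. The medulloblastoma cells (MB), from a cerebellar tumour, came from Ptch1 heterozygous animals and carry no age label. Ptch1 holds back hedgehog signalling, and mice that lack a working copy can form this tumour. Genotype therefore changes together with age between E15.5 and P1, and the 2 cannot be told apart. Between MB and the P7 or P14 precursors, genotype changes together with tumour state, and the age of MB is not given. These cannot be told apart either. All cells were enriched by Percoll fractionation, which separates cells by density, and poly(A) RNA was sequenced. The sources used here do not say whether the 3 samples of a group came from separate animals or from pools, so p-values measure only the spread between these samples, which may be technical.

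Between 12597472 and 43443132 reads per library were counted in genes. No 2 libraries held identical values. Summed levels of 10 granule lineage genes lay between 2659 and 8017 CPM (read counts per 1000000 counted reads, scaled by TMM factors), and 1 of the 10 was at 0 in the E15.5 libraries and none elsewhere. In 6 libraries (E15.5 replicates 1 and 3, all of P7 and MB replicate 1) the gene Tsnax kept few of its reads. At most 0.273% of them passed from the transcript table to the gene table, against at least 92.4% in the other 9. Tsnax was thus counted in different ways, and whether overlapping genes in general were was not tested. Libraries on the same side of this split are called counted alike below. For the choroid plexus genes the gene table held 81.8% to 100% of the transcript table count in every library. P1 replicate 3 stood closest to P14 among the P1 and P7 libraries on the first principal component (68.8, against 83.4 to 90.2 for P14 and 14.5 for P1 replicate 1).

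Ttr encodes transthyretin, the carrier of thyroid hormone in cerebrospinal fluid (ENSMUSG00000061808, mm9 chromosome 18, 20823751 to 20832825, plus strand). Its level was 27.9, 276 and 24.3 CPM in E15.5 replicates 1, 2 and 3. It was 285, 10066 and 3755 CPM at P1 and 8.48, 454 and 1910 CPM at P7. At P14 it was 5565, 8279 and 4970 CPM. In MB it was 21.6, 161 and 11.05 CPM. Libraries of the same label thus stood far apart before P14: the highest P1 library exceeded the lowest 35.3-fold, and the highest P7 library exceeded the lowest 225-fold. At P14 that spread was 1.67-fold. In P1 replicate 2, Ttr alone took 1.13% of all reads counted in genes (95% Wilson interval 1.12% to 1.13%), and in P7 replicate 1 it took 8.51e-04% (7.59e-04% to 9.55e-04%). Such intervals cover counting error only, since reads without molecular identifiers are not independent molecules. In a bulk sample, fewer cells of a type and less RNA per cell cannot be told apart.

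Enpp2 encodes autotaxin, a secreted enzyme that makes the signalling lipid lysophosphatidic acid (ENSMUSG00000022425, mm9 chromosome 15, 54670453 to 54751701, minus strand). Its level was 29.3, 36.1 and 35.5 CPM at E15.5, 94.0, 884 and 1188 CPM at P1, and 120, 204 and 365 CPM at P7. At P14 it was 1784, 2238 and 1529 CPM, and in MB it was 50.7, 82.8 and 23.6 CPM. Enpp2 varied less than Ttr inside the groups, by 1.23-fold at E15.5 and 3.04-fold at P7. All P14 libraries lay above all other libraries. Enpp2 is also made by oligodendrocytes, a point taken up with the marker lists.

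**Figure D1:**
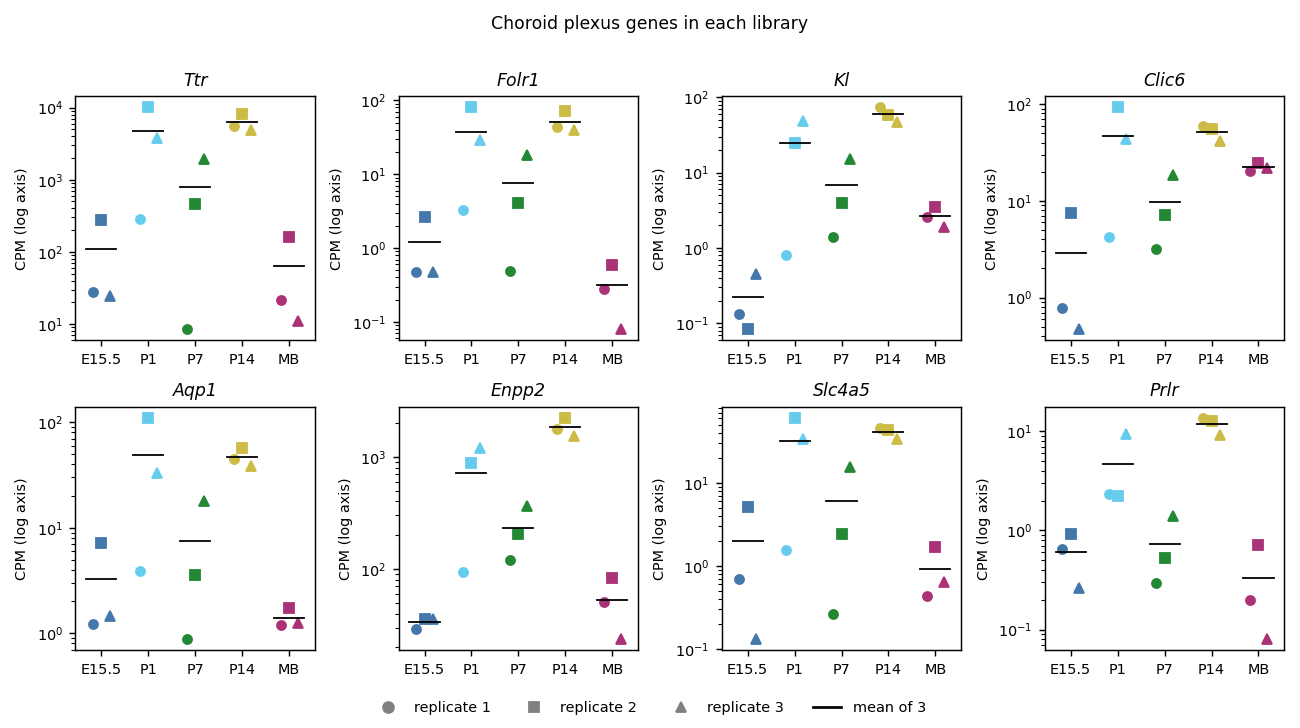
Level of each choroid plexus gene in each of the 15 libraries, in CPM on a log axis, by group, with a symbol for each replicate number and a black line at the mean of 3. The 3 P14 libraries sit close together for every gene, while P1 and P7 are spread over 1 or more powers of 10 for Ttr.

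The genes that move water and ions followed the order of libraries seen for Ttr at P1 and P7. Aqp1 encodes the water channel aquaporin-1 (ENSMUSG00000004655, mm9 chromosome 6, 55286426 to 55298549, plus strand). It stood at 3.86, 111 and 32.8 CPM at P1, at 0.88, 3.56 and 17.9 CPM at P7, and at 45.1, 57.4 and 38.5 CPM at P14. Its E15.5 levels were 1.22, 7.10 and 1.44 CPM and its MB levels 1.19, 1.73 and 1.24 CPM. P1 replicate 2 had the highest Aqp1 level of all libraries and P7 replicate 1 the lowest, 0.88 CPM from 30 reads.

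Slc4a5 encodes a sodium bicarbonate cotransporter of the epithelium's ventricle-facing side (ENSMUSG00000068323, mm9 chromosome 6, 83187369 to 83254938, plus strand). Its levels were 0.70, 5.09 and 0.13 CPM at E15.5, 1.54, 60.9 and 33.9 CPM at P1 and 0.26, 2.43 and 15.6 CPM at P7. They were 46.1, 42.9 and 33.7 CPM at P14 and 0.44, 1.71 and 0.64 CPM in MB. As for Ttr, replicate 2 was the highest library at E15.5, P1 and MB, and replicate 3 at P7. The lowest value, 0.13 CPM in E15.5 replicate 3, rested on 5 reads.

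Clic6 encodes a member of the chloride intracellular channel family (ENSMUSG00000022949, mm9 chromosome 16, 92498379 to 92541488, plus strand). Its levels were 0.79, 7.43 and 0.47 CPM at E15.5, 4.25, 92.3 and 43.1 CPM at P1, 3.16, 7.17 and 18.6 CPM for P7 and 59.8, 55.0 and 41.3 CPM at P14. In MB they were 20.3, 24.8 and 21.6 CPM, from 512, 1017 and 540 reads. The MB libraries differed by only 1.22-fold and lay above all E15.5 and P7 libraries and below all P14 libraries. Of the 8 genes, Clic6 alone had an MB mean above its P7 mean (22.3 ± 2.33 against 9.66 ± 8.04 CPM, SD, n = 3 each).

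Of the receptors, Folr1 takes up folate across the epithelium (ENSMUSG00000001827, mm9 chromosome 7, 109006845 to 109019197, minus strand). Its levels were 0.48, 2.67 and 0.47 CPM at E15.5, 3.30, 80.1 and 29.2 CPM at P1, 0.50, 4.14 and 17.99 CPM for P7, and 43.6, 70.7 and 39.8 CPM at P14. In MB they were 0.28, 0.59 and 0.08 CPM, from 7, 24 and 2 reads. The order of the libraries inside each group matched that of Ttr in all 5 groups.

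Kl encodes klotho, the coreceptor for the hormone FGF23 (ENSMUSG00000058488, mm9 chromosome 5, 151755182 to 151796384, plus strand). Its levels were 0.13, 0.08 and 0.45 CPM at E15.5, from 3, 1 and 17 reads. They were 0.82, 24.5 and 48.4 CPM at P1, 1.40, 3.95 and 14.9 CPM for P7, 73.3, 57.9 and 46.5 CPM at P14, and 2.54, 3.47 and 1.88 CPM in MB. Kl was higher in P1 replicate 3 than in P1 replicate 2, the reverse of Ttr. All 3 MB libraries lay above all 3 E15.5 libraries for Kl, a pair of groups that was not tested.

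Prlr, the prolactin receptor, had the lowest P14 level of the 8 (ENSMUSG00000005268, mm9 chromosome 15, 10107410 to 10266764, plus strand). Its levels were 0.65, 0.92 and 0.26 CPM at E15.5, 2.32, 2.21 and 9.50 CPM at P1, and 0.29, 0.52 and 1.39 CPM at P7. They were 13.7, 12.8 and 9.26 CPM at P14 and 0.20, 0.71 and 0.08 CPM in MB. P1 replicate 2, the highest library for Ttr, had the lowest Prlr level of its group.

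Levels of different genes were compared per kilobase of the counted transcript. At P14 the order was Ttr at 5145 ± 1447 CPM per kb (SD, n = 3), Enpp2 at 545 ± 106, Folr1 at 40.0 ± 13.1, Aqp1 at 17.9 ± 3.65, Clic6 at 13.8 ± 2.56, Kl at 11.6 ± 2.63, Slc4a5 at 7.99 ± 1.26 and Prlr at 1.21 ± 0.239 CPM per kb. Among neighbours in this order, the P14 libraries of Aqp1 and Clic6 overlapped, as did those of Clic6 and Kl. All other neighbours were apart, Kl and Slc4a5 only just (lowest Kl library 9.11 and highest Slc4a5 library 9.003 CPM per kb).

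The promoters of 3 of these genes are shown because the ratio of counts to Ttr varied less for Aqp1 and Slc4a5 than for Kl across the postnatal precursor libraries (5.99-fold for Slc4a5, 14.9-fold for Aqp1 and 67.9-fold for Kl, most of it in P7 replicate 1). Each is the 250 bases before the transcription start in RefSeq (build GRCm38.p6, plus strand), with every GC box (GGGCGG or its reverse complement CCGCCC) in capitals.
Aqp1 (chr6:55336049-55336298): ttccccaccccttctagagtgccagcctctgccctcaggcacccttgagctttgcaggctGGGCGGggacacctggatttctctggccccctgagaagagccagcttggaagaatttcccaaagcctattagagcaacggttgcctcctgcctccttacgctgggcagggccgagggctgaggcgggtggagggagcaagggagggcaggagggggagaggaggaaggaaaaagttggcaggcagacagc
Slc4a5 (chr6:83237125-83237374): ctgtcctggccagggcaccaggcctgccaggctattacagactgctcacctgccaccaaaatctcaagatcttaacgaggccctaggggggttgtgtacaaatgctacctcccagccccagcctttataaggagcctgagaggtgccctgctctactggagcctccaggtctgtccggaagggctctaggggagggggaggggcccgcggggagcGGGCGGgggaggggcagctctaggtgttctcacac
Kl (chr5:150952357-150952606): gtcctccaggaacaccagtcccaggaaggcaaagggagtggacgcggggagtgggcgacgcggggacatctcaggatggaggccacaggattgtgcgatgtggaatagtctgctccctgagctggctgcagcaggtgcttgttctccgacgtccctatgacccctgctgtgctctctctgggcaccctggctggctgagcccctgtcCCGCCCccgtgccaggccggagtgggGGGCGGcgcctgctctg
The RefSeq start is that of the counted transcript for Slc4a5 and Kl and lies 133 bases upstream of it for Aqp1. The promoters searched left out the chromosome that carries Ttr, so a promoter of Ttr could not be matched. Among those searched, 4 of the 8 genes were matched, with 1 promoter each for these 3 genes and 3 for Prlr. GGGCGG, a motif chosen after the sequences were seen, was on either strand of 3 of the 6 promoters and of 32.7% of the 32851 searched. Kl held 2 copies, Aqp1 and Slc4a5 held 1 each, and no Prlr promoter held any. TAATCC, the letters bound by Otx homeodomain proteins, was on neither strand of the 6 promoters and on 6.25% of those searched. So few promoters, 3 of them of Prlr, cannot show a difference from that share. The promoters of Aqp1 (62.0% G and C), Slc4a5 (62.8%) and Kl (66.8%) were richer in G and C than the median of those searched (52.4%). The first Prlr promoter was at 48.0%. A match is a description of the letters only, and it did not separate Aqp1 and Slc4a5 from Kl.

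Counts per 1000 Ttr counts of the same library show how far the genes kept a fixed ratio to Ttr. Why a ratio was kept or not was not tested. P7 replicate 1 held only 290 Ttr counts and was left out of these ranges after its values were seen. In the other 8 postnatal precursor libraries, Folr1 stayed between 7.79 and 11.6 per 1000 Ttr (median 8.28), a 1.49-fold range, while Ttr itself varied 35.3-fold inside P1 alone. Slc4a5 stayed between 5.18 and 9.04 per 1000 (median 6.42, a 1.75-fold range). Aqp1 stayed between 6.93 and 13.5 (median 8.42, 1.95-fold), and Clic6 between 6.64 and 15.8 (median 10.3, 2.38-fold). With P7 replicate 1 kept, the postnatal ranges widened to 7.53-fold for Folr1, 5.99-fold for Slc4a5, 14.9-fold for Aqp1 and 56.1-fold for Clic6.

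Enpp2, Kl and Prlr varied more against Ttr. Enpp2 ranged from 87.8 to 450 per 1000 Ttr in the same 8 libraries (5.13-fold), Kl from 2.44 to 13.2 (5.401-fold) and Prlr from 0.220 to 8.12 (37.0-fold). Kl stood at 2.86, 2.44 and 12.9 per 1000 Ttr at P1 and at 13.2, 6.99 and 9.36 at P14. Prlr stood at 8.12, 0.220 and 2.53 per 1000 Ttr at P1. The low ratios of all 3 genes at P1 were in replicate 2, the library with the most Ttr of its group.

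In P7 replicate 1 the ratios were far higher: 58.6 per 1000 Ttr for Folr1 (exact 95% interval 33.7 to 95.5, 17 reads), 31.0 for Slc4a5, 103 for Aqp1 (68.5 to 151, 30 reads), 166 for Kl, 372 for Clic6 and 14172 for Enpp2. With this library kept, the postnatal range was 67.9-fold for Kl, 157-fold for Prlr and 161-fold for Enpp2. All 7 ratios were higher in that library than in any of the other 8. In MB, Folr1 stood at 12.8, 3.64 and 7.25 per 1000 Ttr, with intervals that reach into its precursor range in replicates 1 and 3. Clic6 stood at 939, 154 and 1957 per 1000 Ttr in MB, above its highest value of 28.1 at E15.5 and apart from its P1 and P14 ratios by a factor of 10 or more in every library. P7 replicate 1, at 372, lay inside the MB range. High MB ratios were not particular to Clic6. Kl stood at 117, 21.5 and 170 per 1000 Ttr in MB, Enpp2 at 2343, 514 and 2134, and Slc4a5 at 20.2, 10.6 and 58.0. All of these lay above the highest ratios of the same 8 libraries (13.2, 450 and 9.04). Aqp1, at 55.0, 10.8 and 112, did so in MB replicates 1 and 3, and Prlr only in replicate 1. The MB libraries held 545, 6597 and 276 Ttr counts.

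**Figure D2:**
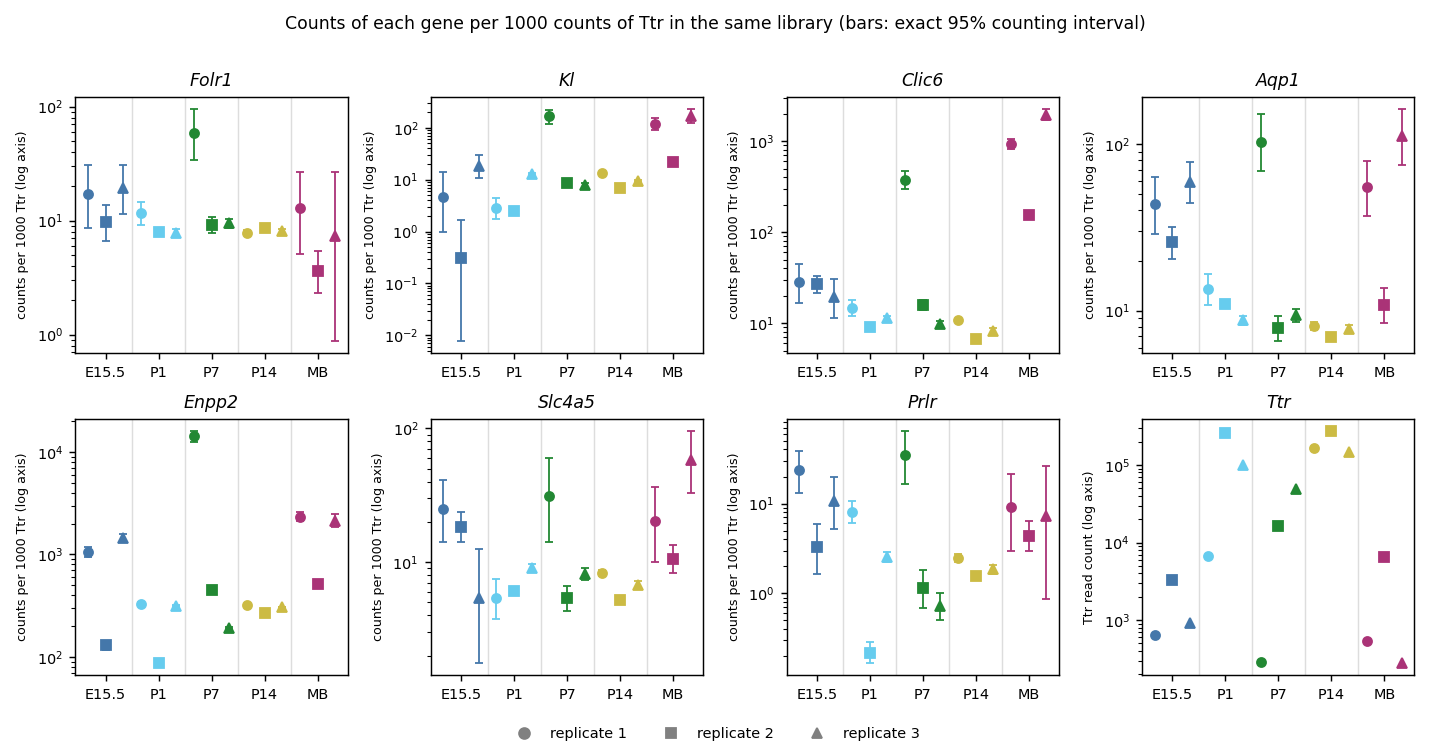
Counts of each gene per 1000 Ttr counts in each library on a log axis, with exact 95% counting intervals, and the Ttr count itself in the last panel. Folr1 and Slc4a5 are nearly level from P1 to P14 apart from P7 replicate 1, and Clic6 stands highest in MB replicates 1 and 3 (939 and 1957).

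Across the 15 libraries the 28 pairs of members had Pearson correlations of log2 CPM from 0.566 to 0.977 (median 0.878). The highest were Ttr with Folr1 (0.977), Folr1 with Aqp1 and Aqp1 with Slc4a5 (0.974 each), and the lowest was Clic6 with Prlr (0.566). Deviations from the group means also moved together, with correlations from 0.476 to 0.971. These are descriptions over libraries that share groups, depth and processing. Outside all lists used here, the 5 genes whose log2 CPM was most like that of Ttr over the 15 libraries were Prr32 (r = 0.973), Mfrp (0.970), Gm853 (0.950), Krt18 (0.948) and Oca2 (0.948). Among those most like Enpp2 were Dsg2 (0.961), Sema3b (0.960), Elovl7 (0.954) and Abcc4 (0.953).

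Differences between groups were tested for all 15259 genes that passed the filter, with edgeR's quasi-likelihood test and Benjamini-Hochberg adjustment (FDR), and called at an FDR under 0.05. Each group contributed 3 libraries, and the comparisons share groups, so they are not independent of one another. Across the 4 ages, all 8 genes were called, where 55.7% of all genes were. The FDR ran from 9.69e-05 for Enpp2 to 0.0309 for Slc4a5, with Ttr at 0.0291.

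From E15.5 to P1, all 8 genes rose (25.4% of all genes were called higher). Kl had the largest fitted change, 6.51 ± 1.24 on the log2 scale (SE, FDR 6.64e-04), against few reads at E15.5. Ttr rose by 5.43 ± 1.68 (FDR 0.0160) and Folr1 by 5.16 ± 1.24 (FDR 0.00351). The genes of secreted proteins, transport and receptors thus all rose. Enpp2 rose by 4.43 ± 0.73, Slc4a5 by 4.22 ± 1.39, Clic6 by 4.17 ± 1.05, Aqp1 by 4.01 ± 1.11 and Prlr by 3.05 ± 0.76, at FDRs from 2.04e-04 for Enpp2 to 0.0220 for Slc4a5. The P1 and E15.5 libraries did not overlap for Ttr, Folr1, Kl, Enpp2 and Prlr, 5 of 8, where 30.5% of all genes were apart in this direction. For Clic6, Aqp1 and Slc4a5, P1 replicate 1 lay below E15.5 replicate 2. Without P1 replicate 2, 5 of the 8 were called, and Ttr, Aqp1 and Slc4a5 were not. Inside the libraries counted alike, which leaves E15.5 replicate 2 alone for its group, only Enpp2 and Kl were called. That fit takes the spread from the other groups and assumes that the lone library varies like them, and the fitted changes of the 6 genes not called stayed between 2.35 for Prlr and 4.09 for Ttr.

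From P1 to P7, none of the 8 genes was called by edgeR (3.15% of all genes were called), although all 8 fitted changes were negative, from -2.73 for Aqp1 to -1.65 for Enpp2. At an unadjusted p under 0.05 there were 5 (Folr1, Aqp1, Prlr, Enpp2 and Clic6), and DESeq2 called 1. That gene was Prlr, whose P7 libraries all lay below its P1 libraries (-2.70 ± 0.72, FDR 0.0538 in edgeR). Prlr was the only 1 of the 8 that was apart, where 14.7% of all genes were. For the other 7, P1 replicate 1 lay inside or below the P7 range. Ttr, at 285 CPM in P1 replicate 1 and 1910 CPM in P7 replicate 3, had the largest standard error (-2.57 ± 1.47, FDR 0.353).

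From P7 to P14, every P14 library exceeded every P7 library for all 8 genes, where 24.9% of all genes were apart in this direction. The test called 3 of them higher (5.81% of all genes were): Prlr by 4.05 ± 0.75 (FDR 0.00884), Enpp2 by 3.01 ± 0.68 (FDR 0.0167) and Kl by 3.14 ± 0.96 (FDR 0.0497). Prlr, Kl and Enpp2 also had the widest ranges of counts per 1000 Ttr. The fitted changes of the other 5 lay between 2.43 for Clic6 and 2.99 for Ttr, at FDRs from 0.101 to 0.207. The call count moved with single libraries: it was 0 without P7 replicate 2, 1 without P7 replicate 1 or without P14 replicate 2, and 5 without P7 replicate 3. Fitted on P7 and P14 alone, it was 6. The Kl call was lost in 10 of 23 alternatives.

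Between P1 and P14, none of the 8 genes was called by edgeR or DESeq2 and none had an unadjusted p under 0.05 (8.94% of all genes were called by edgeR). Fitted changes lay between -0.06 for Aqp1 and 1.36 for Enpp2. P1 replicate 2 was above the highest P14 library for Ttr, Folr1, Clic6, Aqp1 and Slc4a5. Enpp2 was the only gene whose P14 libraries all lay above P1 (1.36 ± 0.64, FDR 0.185), where 26.5% of all genes were apart. Without P1 replicate 3, Prlr was called (log2 change 2.40, FDR 0.0263).

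**Figure D3:**
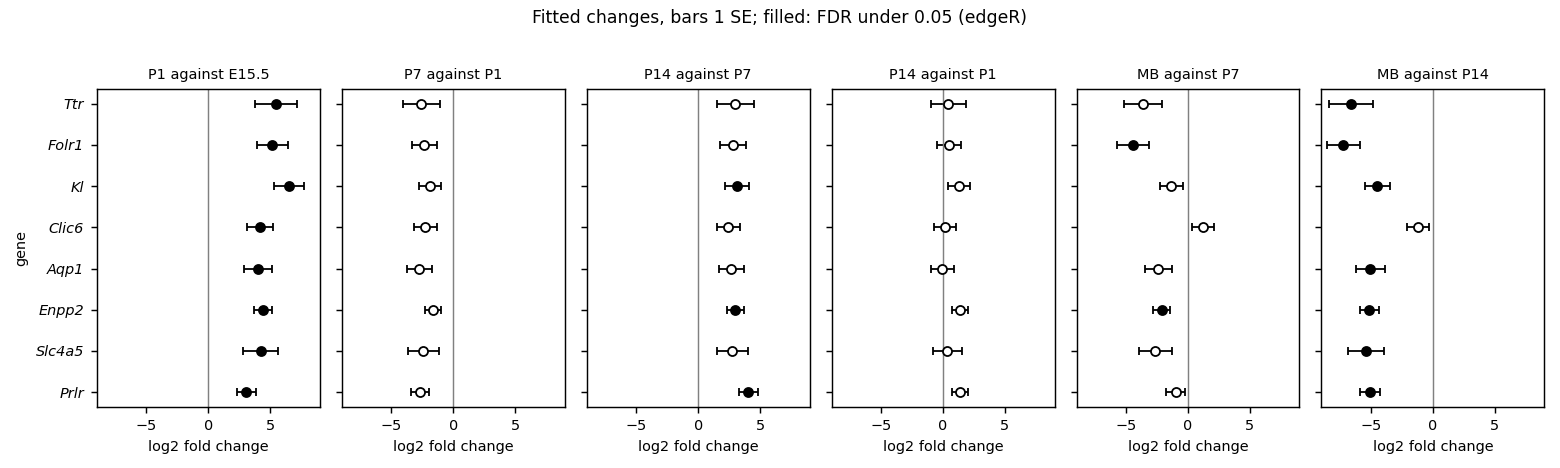
Fitted log2 fold change of each gene in 6 comparisons, with bars of 1 SE and filled points for an FDR under 0.05 in edgeR. All 8 points are filled for P1 against E15.5 and 7 for MB against P14, and Clic6 is the only point right of 0 for MB against P7.

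In the tumour, 7 of the 8 genes were lower than in P14 precursors (27.2% of all genes were called lower). Folr1 fell by 7.22 ± 1.37 on the log2 scale (FDR 4.59e-04), and Ttr fell by 6.60 ± 1.78 (FDR 0.00612). Slc4a5 fell by 5.398 ± 1.44 (FDR 0.00578), and Enpp2 fell by 5.14 ± 0.75 (FDR 5.07e-05). The log2 change was -5.06 ± 1.16 for Aqp1, -5.05 ± 0.80 for Prlr and -4.48 ± 1.03 for Kl, all called. Clic6 was not called (-1.22 ± 0.90, FDR 0.275), yet its MB libraries also lay below all P14 libraries, as for the other 7 (32.7% of all genes were apart in this direction). Fitted on MB and P14 alone, Clic6 was called too (FDR 0.00200).

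Against P7 precursors, 2 genes were lower in MB (20.7% of all genes were called lower). Folr1 fell by 4.44 ± 1.27 (FDR 0.0128), although MB replicate 2 at 0.59 CPM lay above P7 replicate 1 at 0.50 CPM. Enpp2 fell by 2.13 ± 0.66 (FDR 0.0199), with all MB libraries below all P7 libraries, where 23.9% of all genes were apart. Ttr had a fitted change of -3.61 ± 1.54 (FDR 0.0849), Slc4a5 of -2.64 ± 1.32, Aqp1 of -2.39 ± 1.07, Kl of -1.34 ± 0.93 and Prlr of -1.0001 ± 0.78. Clic6 had the only positive value, 1.21 ± 0.91 (FDR 0.337), and all MB libraries lay above all P7 libraries, where 17.7% of all genes were apart in that direction. Both calls were lost without P7 replicate 3, 1 call was left without MB replicate 3, and 4 genes were called without P7 replicate 1. Inside the libraries counted alike, which leaves MB replicate 1 alone with the spread taken from the other groups, none of the 8 was called, at fitted changes of -4.73 for Folr1 and -2.19 for Enpp2.

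A further list of 22 genes of the same epithelium was read beside the 8, and all 22 were tested. From E15.5 to P1, 19 rose and 1 fell, and from P7 to P14, 11 rose. In MB, 12 were lower than at P7 and 21 lower than at P14. From P1 to P7, 2 fell (Cldn1 and Lmx1a), and between P1 and P14 none was called. Median log2 changes were 3.75 from E15.5 to P1, -2.23 to P7, 2.67 to P14, -2.75 for MB against P7 and -5.31 for MB against P14. The corresponding medians of the 8 genes were 4.32, -2.37, 2.88, -2.26 and -5.10, and those over all genes tested lay between -0.01 and 0.03.

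Htr2c, a serotonin receptor, followed Ttr through the libraries, at 2.83, 80.1 and 44.5 CPM at P1, 0.79, 6.10 and 14.3 CPM at P7 and 59.5, 63.7 and 47.3 CPM at P14. In MB it stood at 0.16, 1.07 and 0 CPM. Kcnj13, a potassium channel of the epithelium, averaged 0.97 ± 0.92 CPM at E15.5, 19.6 ± 17.1 at P1, 4.59 ± 4.88 for P7, 29.5 ± 7.67 at P14 and 0.67 ± 0.27 in MB (SD, n = 3). Sostdc1, a secreted inhibitor of BMP and Wnt signals, averaged 39.8 ± 38.8 CPM at P1, 5.67 ± 7.30 at P7 and 45.1 ± 9.30 at P14. The sulfate transporter gene Slc13a4, Lbp, F5 (coagulation factor V) and 1500015O10Rik (Ecrg4) were also called across the 4 ages, at FDRs from 3.57e-04 for F5 to 6.60e-04 for 1500015O10Rik.

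Not all genes of that list followed Ttr in every comparison, and Otx2, Lmx1a and Slc12a2 are among those that did not. Otx2, a transcription factor needed to form the choroid plexus, stood at 89.7, 85.4 and 70.1 CPM at E15.5 and at 38.0, 52.5 and 52.4 CPM at P7, and was not called across the ages (FDR 0.129), though 3 alternatives called it (without MB replicate 1, without MB replicate 3, and without all MB libraries, FDR down to 0.00110). In P7 replicate 1, Otx2 was at 38.0 CPM while Ttr was at 8.48 CPM. Lmx1a, a transcription factor of the roof plate and rhombic lip, was highest at E15.5 (37.7 ± 14.8 CPM) and fell to P1 (9.81 ± 3.88 CPM, log2 change -1.94, FDR 0.00531). From there on Lmx1a changed in the direction of Ttr: it fell from P1 to P7 (-3.29, FDR 0.0115), rose from P7 to P14 (2.18, FDR 0.0225) and was lower in MB than at P14 (-4.97, FDR 2.56e-05). Slc12a2, the sodium, potassium and chloride cotransporter, averaged 49.0 ± 13.3 CPM at E15.5 and 168 ± 36.6 at P1, and its MB level of 125 ± 23.1 CPM stood beside 133 ± 18.7 CPM at P7 (log2 change -0.08, FDR 0.818). Slc12a2 rose from P7 to P14 (0.74, FDR 0.0494) and was lower in MB than at P14 (-0.82, FDR 0.00693).

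Markers of other cell types moved with the choroid plexus genes in several comparisons, and their part in the results was not tested. The summed level of 10 oligodendrocyte genes, Mbp among the most abundant, lay between 61.8 and 77.4 CPM at E15.5. At P1 it was 228, 756 and 4257 CPM, at P7 1966, 1099 and 848 CPM, between 6850 and 7462 CPM at P14 and between 131 and 248 CPM in MB. Within P7 this order of libraries is the reverse of that of Ttr. It is also the reverse of that of Enpp2 (120, 204 and 365 CPM), Kl (1.40, 3.95 and 14.9 CPM) and Prlr (0.29, 0.52 and 1.39 CPM). P1 replicate 3, highest of its group in oligodendrocyte genes, was also highest in Enpp2, Kl and Prlr, while P1 replicate 2 was highest in Ttr, Folr1, Clic6, Aqp1 and Slc4a5. All 10 oligodendrocyte genes were called higher at P1 than at E15.5, and in MB 9 were lower than at P7 and Olig2, named after its values were seen, was higher (1.21 ± 0.41, FDR 0.0316).

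Vessel and meningeal genes also differed between the groups. The 8 endothelial genes summed to between 19.1 and 42.4 CPM at E15.5, 425 to 657 at P1, 313 to 379 for P7, 813 to 848 at P14 and 28.1 to 42.5 in MB. The 10 mural and meningeal genes summed to between 40.5 and 57.5 CPM at E15.5, 998 to 1579 at P1, 608 to 913 for P7, 1205 to 1452 at P14 and 33.7 to 43.0 in MB. Inside P7 the highest and lowest sums differed by 1.21-fold for the endothelial and 1.501-fold for the mural and meningeal genes. The sum of the 8 choroid plexus genes differed by 17.5-fold there. That of the 22 further genes of the epithelium differed by 1.59-fold, and abundant genes weighed on it. In P7 replicate 1, Slc12a2 alone gave 153 of 251 CPM. Slc12a2, Slc4a10 and Otx2 differed inside P7 by 1.32-fold, 1.31-fold and 1.38-fold. Kcnj13, Htr2c and Sostdc1 of the same list differed by 26.2-fold, 18.1-fold and 119-fold, Sostdc1 from 4 reads in P7 replicate 1. All 8 endothelial and all 10 mural and meningeal genes were called higher at P1 than at E15.5 and lower in MB than at P7. The 12 multiciliated and ependymal genes, markers of the cells that line the ventricles, summed to between 23.9 and 35.4 CPM at E15.5, 67.7 to 129 at P1, 35.3 to 57.1 for P7, 59.5 to 73.4 at P14 and 12.6 to 25.5 in MB. No member of the endothelial or mural and meningeal lists was at 0 in any library, and 1 of the 10 oligodendrocyte genes was at 0 in E15.5 replicates 2 and 3.

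Astroglial genes rose with the choroid plexus genes at P1, and microglial genes went the other way in the tumour. The 7 astroglial genes summed to between 123 and 357 CPM at E15.5, 2428 to 3710 at P1, 1872 to 4126 for P7, 3303 to 4276 at P14 and 972 to 1433 in MB. All 7 were called higher at P1 than at E15.5. In MB, Slc1a3, Fabp7, Gdf10, Aqp4 and Aldh1l1 were lower than at P7 and S100b was higher. The 8 microglia and macrophage genes summed to between 58.8 and 155 CPM for P7, 150 to 212 at P14 and 179 to 477 in MB. Of these, Cd68, Aif1, C1qa, C1qb and C1qc were called higher in MB than at P7 and than at P14.

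**Figure D4:**
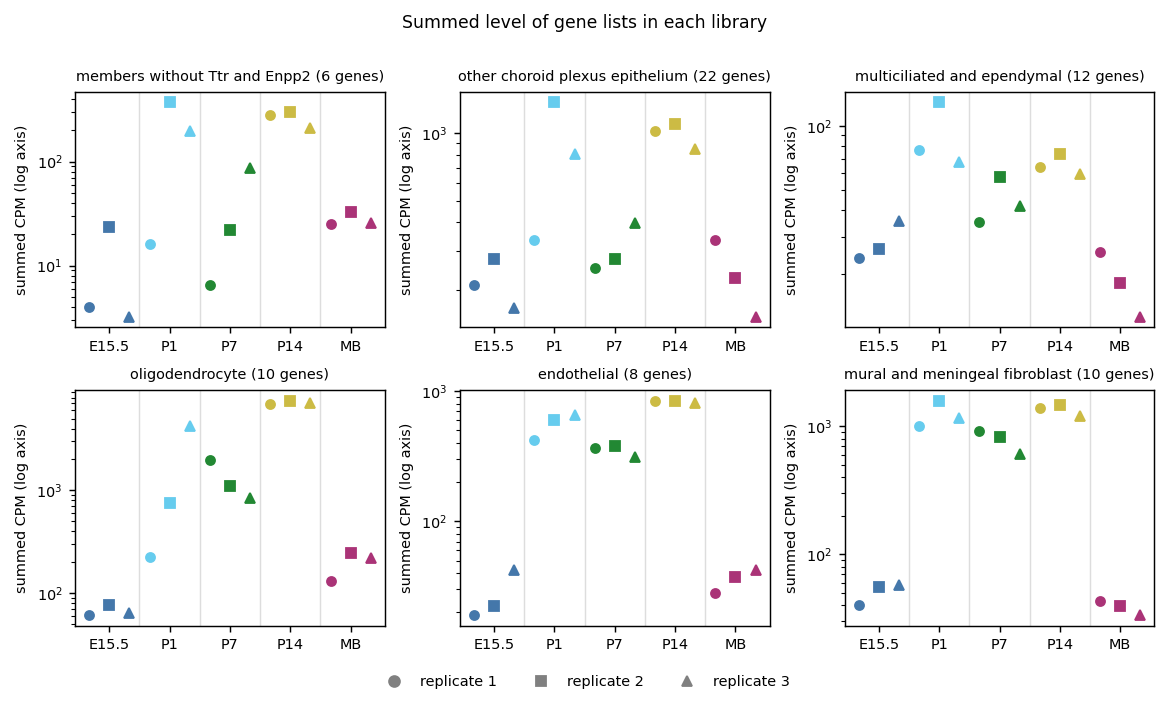
Summed CPM on a log axis in each library for 6 of the choroid plexus genes (without Ttr and Enpp2), the 22 further genes of the epithelium and 4 lists of other cell types. Inside P7 the sum of the 6 choroid plexus genes differs by 13.3-fold between libraries and that of the endothelial genes by 1.21-fold. The sum of the 22 further genes differs by 1.59-fold, with Slc12a2 its most abundant gene there. Of these 22, Slc12a2 differs by 1.32-fold inside P7 and Sostdc1 by 119-fold.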

How the data were processed

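Poly(A) RNA of 15 mouse samples in 5 groups was sequenced on TruSeq v2 libraries, per the labels' protocols. The submitters' processing notes name Trimmomatic, TopHat, StringTie, HTSeq and the mm9 build. Versions and the strand setting are not given in the sources used here. The authors deposited raw read counts per gene, start site model and transcript. Gene counts are the basis here, and symbols were matched for 20358 of 21889 genes. Of all records tallied, 39.5% to 55.4% were counted in genes. Rows that name no gene (14.1% to 29.2% of records), several alignments (22.9% to 44.6%) or several genes (0.520% to 0.749%) were left out. A read with several alignments may be tallied more than once, so these are not shares of reads.

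Genes passing edgeR's filterByExpr (minimum count 10, minimum total 15; 15259 genes) were scaled by TMM and fitted over all 15 libraries (glmQLFit and glmQLFTest, edgeR 4.0.16, R 4.3.3, 10 residual degrees of freedom). An FDR under 0.05 over all genes made a call. CPM used TMM-scaled totals, and correlations a prior count of 2. CPM per kb used the counted transcript's length. Ratio intervals are exact binomial, at 95%. The fit was tested on simulated counts. Alternatives were DESeq2 1.42.0, other scalings, no filter, other tables, only the groups compared, a replicate block and leaving out each library. The choroid plexus genes and all lists were chosen with earlier results of these data known. All 8 were named, with Otx2, Kcnj13, Sostdc1, Htr2c and the 6 further list genes of smallest FDR over the 4 ages. The 5 most alike genes needed a mean of at least 1 CPM, and 1 of those for Enpp2 is not reported here. Antisense and overlapping genes cannot be told apart from the members without the strand setting.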

Additional observations from a re-analysis of the deposited data

How the results depend on the processing

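Each of 24 alternatives was run where it could be fitted. Of 1313 values of single genes under them, 1246 kept direction and side of the threshold, 40 lost a call, 20 gained one and 7 changed sign. Counts of called genes moved as follows. P1 against E15.5 (8 called) gave 2 inside the libraries counted alike, and 5 to 8 when each library was left out. P7 against P1 (0 called) gave 1 with DESeq2, with library totals alone and without a filter, and 0 to 1 when each library was left out. P14 against P7 (3 called) gave 6 with only the groups compared, and 0 to 5 when each library was left out. P14 against P1 (0 called) gave 0 to 1, MB against P7 (2 called) gave 0 inside the libraries counted alike and 0 to 4, MB against P14 (7 called) gave 8 with only the groups compared, 6 of 7 tested in the start site table and 7 when each library was left out, and the 4 ages gave 6 to 8. The fits that leave out libraries or groups hold fewer samples, and the cause of the other changes was not tested.

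The sign changed only for P14 against P1, where none of these values was called. When each library was left out, the log2 change ran from -0.14 to 1.63 for Ttr, -0.089 to 1.66 for Folr1, -0.38 to 1.13 for Clic6, -0.61 to 1.35 for Aqp1 and -0.21 to 1.20 for Slc4a5. For Aqp1 it was 0.72 with the replicate block. Replicate numbers share only a name: correlations of same-numbered deviations ran from -0.24 to 0.33, over 0.1 for all 3 pairs in no comparison. The replicate block left all 7 counts of calls as they were (8, 8, 0, 3, 0, 2 and 7). No fit inside the libraries counted alike was possible for the 4 ages, P7 against P1 and P14 against P7. Depth limits Folr1 and Prlr in MB (down to 2 reads) and Kl at E15.5 (down to 1 read).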
